A study of Mus musculus with 32 samples.

Results

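Car14, Gsta4, Lsr, Sfxn1 and Tmsb15b2 are 5 of the 32285 genes listed for single-cell RNA-seq libraries of the embryonic mouse dorsal telencephalon, the tissue that gives rise to the cerebral cortex. They were selected on their measured het to WT difference, a lower level in progenitor cells of Chd8 het embryos than in those of wild-type (WT) embryos. The het to WT differences of these genes are therefore given below as descriptions. Calls over all genes on that contrast are listed with the 5 genes among them, but nothing is read from those calls. Tests of the 5 genes are read only for comparisons that the selection did not use. All embryos were on the C57BL/6J strain. The 8 groups were WT and Chd8 het (labelled Chd8+/-), each taken at E12.5, at E14.5, at E16.0 and at E17.5, with 4 libraries a group and 1 embryo per library. The allele is carried by every cell of a het embryo, and which stretch of Chd8 it lacks is not given in the sources used here. Per the labels' protocols the embryos were matched by litter and sex. The titles give sex and a number but no litter, so a het and a WT embryo of the same stage, sex and number were taken as a pair, which gave 16 pairs, named M1, M2 (male), F1 and F2 (female) within each stage. Medial tissue was left out at dissection.

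CHD8 is a chromatin remodelling ATPase, and loss of a copy of its gene is linked to autism and large head size in people. Sox2 is expressed by radial glia, the cortical stem cells that line the ventricle, Eomes by the intermediate progenitors they produce, and Neurod6 by the excitatory neurons that follow. The 5 genes belong to no common pathway. Car14 encodes a membrane-bound carbonic anhydrase, which interconverts carbon dioxide and bicarbonate outside the cell. Gsta4 encodes a glutathione transferase that clears 4-hydroxynonenal, a toxic product of lipid peroxidation. Sfxn1 encodes a mitochondrial transporter that brings serine to one-carbon metabolism. Lsr encodes a lipoprotein receptor that also marks tricellular junctions in epithelia and in brain endothelium. Tmsb15b2 encodes a beta-thymosin, a small peptide that binds actin monomers.

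The deposited values were counts of unique molecular identifiers (UMIs, each marking 1 captured RNA molecule). The libraries held between 14710694 and 66499864 UMIs, and 138226 cells were kept after filtering. Any 2 libraries shared at most 60 cell barcodes. A cell was called Sox2-detected, Eomes-detected or Neurod6-detected when it held at least 1 UMI of that gene, which gave 54142, 31783 and 84935 cells. The classes overlap, since 15957 of the Sox2-detected cells also held Neurod6 and 23919 of the Eomes-detected cells did. Counts were summed per library and class and are given per 1000000 UMIs of that sum (CPM). Chd8 itself was lower in the het library of 15 of 16 pairs in each class, the exception being E17.5 F1. Its range in Sox2-detected cells was 35.4 to 70.5 CPM in WT and 19.3 to 55.6 CPM in het libraries, with a log2 fold change of -0.26 (SE 0.07, edgeR adjusted p = 0.143). In Eomes-detected cells Chd8 was called lower (-0.28, SE 0.06, edgeR adjusted p = 0.0477), and in Neurod6-detected cells it was not (-0.29, SE 0.08, adjusted p = 0.139). Reads of this chemistry lie near the 3′ end, so they check the label only if the allele removes or lowers that part. At E12.5, 3 het libraries were shallow: their median UMIs per Sox2-detected cell were 0.433, 0.626 and 0.743 times those of the WT embryos of their pairs (F1, F2 and M1), against 1.07 for M2. At E17.5, WT M1, het M1 and het F1 stood apart from the other 5 libraries on the first principal component, which took 62.2% of the variance. The F1 pair of E17.5 was thus split, and the deviations of its embryos from their group means did not correlate by more than 0.1 in any class (-0.0074, -0.070 and 0.074 in Sox2-detected, Eomes-detected and Neurod6-detected cells). The log2 fold changes of the 5 genes in Sox2-detected cells at E12.5 and E17.5 are given below with and without these libraries, and other values include them unless stated.

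Promoter windows of 250 bases before the transcription start were taken from the RefSeq table of build GRCm38.p6, where Car14, Lsr, Sfxn1 and Tmsb15b2 were matched by symbol and Gsta4 was not. They are shown so that the genes, which were chosen for a common direction, can be compared by what lies upstream of their RefSeq starts. For Tmsb15b2 the annotations differ: GENCODE M21, used for gene positions here, extends the gene further upstream, so this window lies inside the gene as GENCODE gives it. Each is written 5′ to 3′ on the strand of its gene, and capitals mark a match on either strand to any of the 11 motifs searched.
Car14, chr3:95904686-95904935, minus strand: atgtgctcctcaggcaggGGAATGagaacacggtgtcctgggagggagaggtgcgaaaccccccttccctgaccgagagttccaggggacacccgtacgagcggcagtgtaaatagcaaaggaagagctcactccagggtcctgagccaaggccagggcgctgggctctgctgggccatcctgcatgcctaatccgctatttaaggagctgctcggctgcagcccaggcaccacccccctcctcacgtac
Lsr, chr7:30973470-30973719, minus strand: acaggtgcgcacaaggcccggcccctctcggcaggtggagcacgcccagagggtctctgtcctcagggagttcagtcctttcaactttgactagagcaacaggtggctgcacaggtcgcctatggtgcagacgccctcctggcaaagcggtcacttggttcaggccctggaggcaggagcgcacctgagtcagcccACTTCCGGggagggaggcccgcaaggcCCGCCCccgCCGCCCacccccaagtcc
Sfxn1, chr13:54071595-54071844, plus strand: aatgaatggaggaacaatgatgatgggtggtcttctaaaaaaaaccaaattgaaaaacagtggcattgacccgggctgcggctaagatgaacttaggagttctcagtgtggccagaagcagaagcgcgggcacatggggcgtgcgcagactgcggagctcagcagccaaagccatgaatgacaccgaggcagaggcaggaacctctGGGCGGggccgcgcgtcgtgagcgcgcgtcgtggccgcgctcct
Tmsb15b2, chrX:136957980-136958229, minus strand: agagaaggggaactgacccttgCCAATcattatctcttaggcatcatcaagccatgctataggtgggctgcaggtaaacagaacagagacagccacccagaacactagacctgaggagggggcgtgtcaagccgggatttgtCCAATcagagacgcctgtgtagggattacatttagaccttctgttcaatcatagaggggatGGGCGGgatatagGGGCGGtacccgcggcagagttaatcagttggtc
GC content was 62.0% for Car14, 66.8% for Lsr, 58.0% for Sfxn1 and 52.0% for Tmsb15b2, beside a median of 52.4% over all promoters in the table. The GC box GGGCGG, present in 32.8% of the 32841 promoters searched, was found in Lsr (first base at -27 and -18, counted from the start), Sfxn1 (at -44) and Tmsb15b2 (at -47 and -34). CCAAT, present in 33.9% of promoters, was found in Tmsb15b2 at -228 and -108. The ETS motif CCGGAAGT, present in 2.88%, was found in Lsr at -54, and the TEAD motif GGAATG, present in 12.6%, in Car14 at -232. None of the 4 windows held TGACNNNGC (antioxidant response element, 10.2% of promoters), CACGTG (E-box, 6.02%), TATAAA (12.4%), AAGATGGCG (YY1, 0.603%), TGACGTCA (CRE, 1.55%), CTTTGAT (TCF/LEF, 3.21%) or TGGGAA (RBPJ, 21.6%). No motif was common to all 4. A match of letters is not a bound site.

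Car14 was lower in the het embryo of all 16 pairs in Sox2-detected cells, at every stage. In the order M1, M2, F1 and F2, the WT libraries at E12.5 held 44.1, 47.0, 47.4 and 47.2 CPM and the het libraries 38.7, 36.2, 43.1 and 38.4 CPM. At E14.5 the WT libraries held 41.3, 44.2, 30.5 and 41.2 CPM and the het libraries 29.7, 31.01, 24.3 and 36.6 CPM. The groups were separate at E12.5 and overlapped at E14.5, where het M2 and F2 lay above WT F1. At E16.0 the values were 18.5, 24.8, 21.4 and 24.2 CPM in WT and 12.6, 15.01, 11.4 and 16.3 CPM in het libraries. At E17.5 they were 6.50, 9.72, 10.7 and 18.2 CPM in WT and 5.22, 4.90, 3.36 and 5.80 CPM in het libraries. The lowest WT library lay above the highest het library at both of these stages. The fitted log2 fold change was -0.16 (SE 0.17) at E12.5, -0.36 (SE 0.17) at E14.5, -0.68 (SE 0.18) at E16.0 and -1.27 (SE 0.25) at E17.5. It was -0.62 (SE 0.10) averaged over the stages. At E17.5 it was -1.27 also without the 3 libraries that stood apart, and at E12.5 it was -0.40 (SE 0.27) with M2 as the only het library left. Such an E12.5 value compares 1 het embryo with the WT group, and its SE assumes that this embryo varies like the other groups. In the split F1 pair of E17.5 the log2 ratio of Car14 was -1.54 in Sox2-detected, -1.96 in Eomes-detected and -1.65 in Neurod6-detected cells, beside -1.57 to -0.29, -1.22 to -0.75 and -1.26 to -0.88 in the other 3 pairs of that stage.

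Car14 was lower in all 16 pairs in Eomes-detected and in Neurod6-detected cells too. In Eomes-detected cells the E17.5 libraries held 9.49, 13.1, 17.3 and 21.1 CPM in WT and 5.43, 6.14, 4.07 and 8.75 CPM in het embryos, again without overlap. In Neurod6-detected cells at E17.5 they held 2.54, 4.95, 3.77 and 7.92 CPM in WT and 1.15, 2.47, 0.861 and 3.01 CPM in het embryos, where the groups overlapped. The log2 fold change averaged over stages was -0.70 (SE 0.10) in Eomes-detected and -0.74 (SE 0.15) in Neurod6-detected cells. At E12.5 in Neurod6-detected cells, het M1, F1 and F2 held 9.46 to 11.7 CPM and het M2, the deep library, held 23.4 CPM, within the WT range of 17.2 to 26.7 CPM. Without the 3 shallow libraries the E12.5 log2 fold change in these cells went from -0.53 to 0.08 (SE 0.40).

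**Figure D1:**
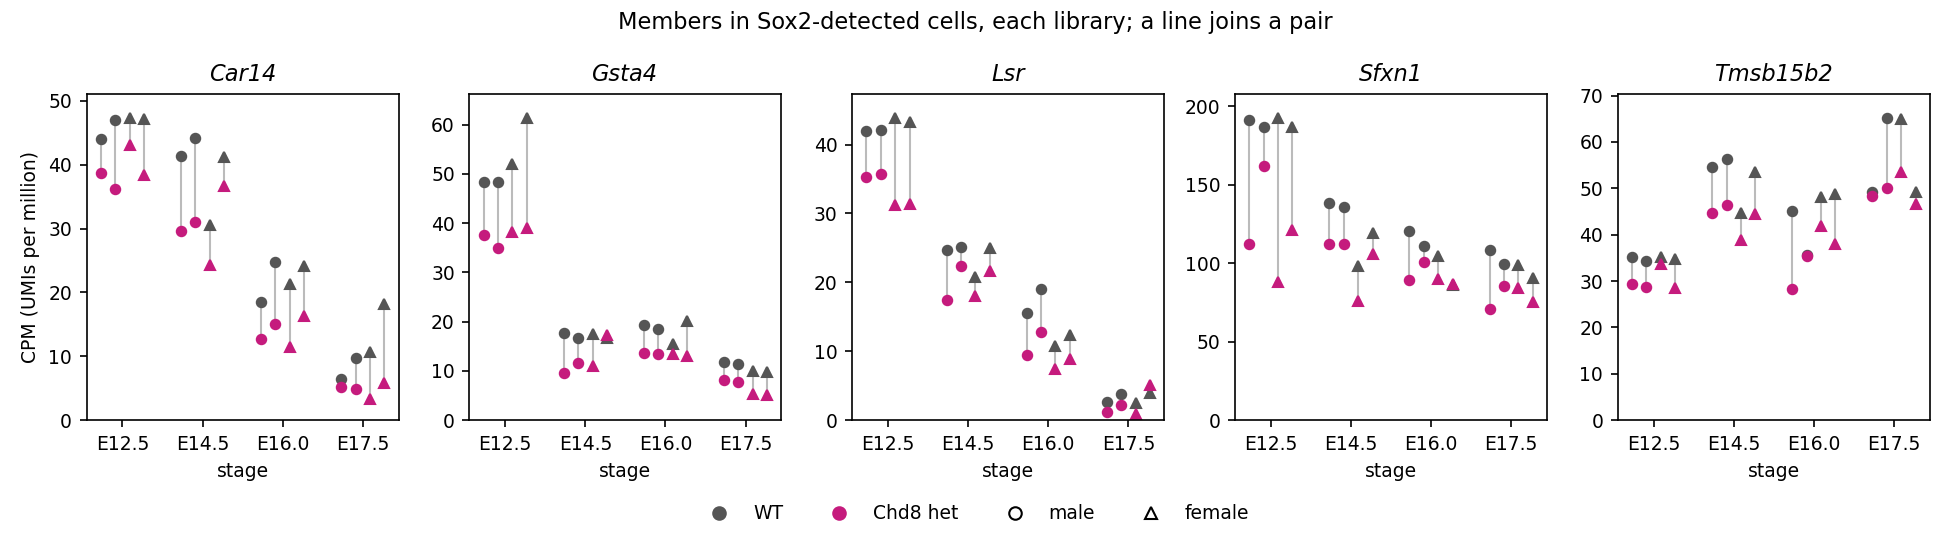
CPM of the 5 genes per library in Sox2-detected cells (vertical axis, linear) by stage (horizontal axis). Grey marks are WT and magenta marks are Chd8 het libraries, circles are male and triangles female, and a line joins the embryos of a pair; Car14 and Tmsb15b2 sit lower in the het embryo of 16 of 16 pairs, and Gsta4, Lsr and Sfxn1 in 15 of 16.

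Gsta4 was lower in the het embryo of 15 of 16 pairs in each of the 3 classes, and the exception was E14.5 F2 in each when all cells were counted. In Sox2-detected cells at E12.5 the WT libraries held 48.3, 48.3, 52.0 and 61.4 CPM and the het libraries 37.6, 34.9, 38.2 and 39.0 CPM. At E14.5 the WT libraries held 17.6, 16.7, 17.6 and 16.6 CPM and the het libraries 9.62, 11.5, 10.99 and 17.2 CPM. The E14.5 groups overlapped through het F2 alone. At E16.0 the values were 19.3, 18.5, 15.5 and 20.1 CPM in WT and 13.7, 13.5, 13.4 and 12.97 CPM in het libraries. At E17.5 they were 11.8, 11.4, 9.95 and 9.74 CPM in WT and 8.11, 7.67, 5.38 and 5.08 CPM in het libraries. WT and het were separate at E12.5, E16.0 and E17.5. The log2 fold change was -0.52 (SE 0.08) averaged over stages, and -0.40, -0.45, -0.46 and -0.75 from E12.5 to E17.5. Averages in the other classes were -0.64 (SE 0.11) in Eomes-detected and -0.48 (SE 0.11) in Neurod6-detected cells. Gsta4 in Neurod6-detected cells was scarce at E17.5, at 1.5 to 2.55 CPM in WT and 1.02 to 1.56 CPM in het libraries.

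Sfxn1, the most abundant of the genes in Sox2-detected cells, was lower in 15 of 16 pairs there and in all 16 pairs in both other classes. At E12.5 the WT libraries held 191, 187, 193 and 187 CPM and the het libraries 112, 162, 88.1 and 121 CPM in Sox2-detected cells. At E14.5 the values were 138, 136, 98.0 and 119 CPM in WT and 112, 112, 76.1 and 106 CPM in het libraries. The spread among het embryos was widest at E12.5, where the shallow libraries M1, F1 and F2 lay below M2. At E16.0 the values were 120.2, 111, 105 and 85.9 CPM in WT and 89.0, 101, 90.1 and 86.6 CPM in het libraries. At E17.5 they were 108, 99.4, 98.7 and 90.5 CPM in WT and 70.4, 85.2, 84.3 and 75.4 CPM in het libraries. E16.0 F2 was the pair that was not lower, and the genotypes were separate at E12.5 and E17.5. The log2 fold change was -0.57 (SE 0.12) at E12.5, -0.27 at E14.5, -0.20 at E16.0 and -0.35 at E17.5, with an average of -0.35 (SE 0.06). With het M2 alone at E12.5 it was -0.27 (SE 0.16) in Sox2-detected, -0.22 (SE 0.15) in Eomes-detected and -0.07 (SE 0.21) in Neurod6-detected cells at that stage. With all libraries the E12.5 values were -0.60 and -0.62 in Eomes-detected and Neurod6-detected cells. The part of library depth in the E12.5 difference was not tested.

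Lsr was lower in 15 of 16 pairs in Sox2-detected cells, 14 in Eomes-detected and 12 in Neurod6-detected cells. At E12.5 the WT libraries held 42.0, 42.2, 43.9 and 43.3 CPM and the het libraries 35.3, 35.7, 31.2 and 31.4 CPM in Sox2-detected cells. At E14.5 the values were 24.7, 25.1, 20.8 and 24.95 CPM in WT and 17.4, 22.3, 18.1 and 21.6 CPM in het libraries. The genotypes were separate at E12.5 and overlapped at E14.5. At E16.0 they were 15.5, 19.0, 10.7 and 12.3 CPM in WT and 9.50, 12.8, 7.40 and 8.81 CPM in het libraries. At E17.5 they were 2.64, 3.79, 2.49 and 3.90 CPM in WT and 1.16, 2.13, 0.840 and 5.08 CPM in het libraries. Het F2 was the highest of the 8 libraries at E17.5 and the only het embryo above the WT embryo of its pair. The log2 fold change averaged over stages was -0.42 (SE 0.12) in Sox2-detected cells, -0.21 (SE 0.17) in Eomes-detected and -0.15 (SE 0.19) in Neurod6-detected cells.

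Lsr at E17.5 is given here beside the endothelial RNA of each library. Lsr reached 193 CPM (exact Poisson interval 184.5 to 201.3, counting error only) over 593 cells with at least 2 endothelial markers and 109 CPM (102 to 116) over 708 cells with at least 2 pericyte markers, against 28.4 CPM over all Sox2-detected cells. Endothelial cells line blood vessels and pericytes wrap them. A cell with at least 2 markers of each counts in both sets, so the pericyte value can include endothelial RNA. In Eomes-detected cells at E17.5, Lsr was 2.43, 2.21, 1.92 and 5.32 CPM in WT and 0.724, 7.12, 0.813 and 7.72 CPM in het libraries. The summed CPM of the 5 endothelial markers (Cldn5, Pecam1, Kdr, Cdh5 and Flt1) came to 29.1, 3.31, 3.02 and 49.3 in the same WT libraries and to 5.43, 99.2, 4.88 and 165 in the het libraries. The het libraries with the most Lsr, M2 and F2, thus held the most endothelial RNA, and so they did in Neurod6-detected cells (156 and 133 CPM, against 15.8 to 62.3 CPM in the other 6 libraries). In Sox2-detected cells het F2 held 117 CPM of these markers and the other 7 libraries 1.85 to 21.5 CPM. The order of libraries was not the same throughout: in Sox2-detected cells het M2, at 21.5 CPM of these markers, had less Lsr (2.13 CPM) than WT M1 (2.64 CPM), and in Eomes-detected cells WT M1, at 29.1 CPM, had Lsr near that of WT M2 (2.43 and 2.21 CPM). No association was tested. In Neurod6-detected cells Lsr was 0.981, 2.51, 2.89 and 3.43 CPM in WT and 2.13, 7.81, 1.24 and 5.22 CPM in het libraries. Endothelial and pericyte cells were 0.259%, 0.286% and 0.305% of the Sox2-detected, Eomes-detected and Neurod6-detected cells.

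Without the endothelial and pericyte cells, a choice made after the data were seen, Lsr was lower in the het embryo of all 16 pairs in all 3 classes. In the same step Gsta4 in Eomes-detected cells went from 15 to 14 pairs (E16.0 F1 was added) and Tmsb15b2 in Sox2-detected cells from 16 to 15 (E16.0 M2), while the other counts of pairs stayed the same. In Sox2-detected cells at E17.5 the WT libraries then held 2.65, 2.98, 2.50 and 3.97 CPM and the het libraries 1.16, 1.49, 0.841 and 2.47 CPM. In Eomes-detected cells the WT libraries held 2.00, 2.21, 1.92 and 3.53 CPM and the het libraries 0.725, 1.01, 0.816 and 1.84 CPM, without overlap. Each of these E17.5 values rests on 2 to 25 UMIs per library. The E17.5 log2 fold change went from -0.57 to -1.08 (SE 0.29) in Sox2-detected, from 0.46 to -1.16 (SE 0.38) in Eomes-detected and from 0.68 to -0.77 (SE 0.44) in Neurod6-detected cells. The averages over stages became -0.55, -0.65 and -0.54. Removing the 3 libraries apart at E17.5 instead, which leaves het M2 and F2, gave E17.5 values of 0.02, 1.20 and 1.12 in the 3 classes. The direction at E17.5 therefore depends on which cells and libraries are counted, and at E12.5 to E16.0 the Lsr log2 fold change was between -0.56 and -0.25 in Eomes-detected and Neurod6-detected cells. Without the shallow het libraries it was 0.19 in Neurod6-detected cells at E12.5.

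**Figure D2:**
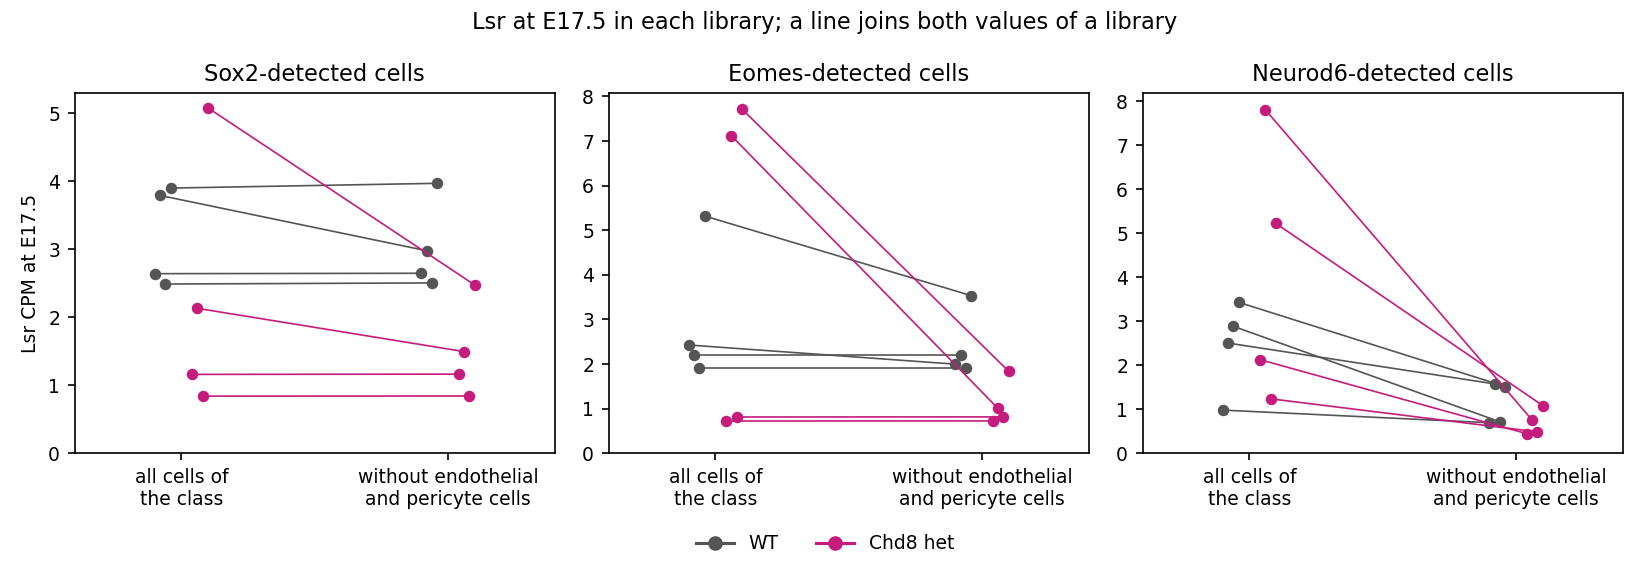
Lsr CPM at E17.5 per library (points, vertical axis, linear), with a panel for each cell class. The horizontal axis gives all cells of the class and then the class without endothelial and pericyte cells. Grey marks are WT and magenta marks are Chd8 het libraries, and a line joins both values of a library. In Eomes-detected cells the 2 het libraries at 7.12 and 7.72 CPM go to 1.01 and 1.84 CPM when those cells are left out.

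Tmsb15b2 was lower in all 16 pairs in Sox2-detected cells, in 14 in Eomes-detected and in 9 in Neurod6-detected cells. In Sox2-detected cells at E12.5 the WT libraries held 35.3, 34.2, 35.2 and 34.8 CPM and the het libraries 29.4, 28.7, 33.8 and 28.4 CPM. At E14.5 they held 54.6, 56.2, 44.6 and 53.6 CPM in WT and 44.6, 46.4, 38.9 and 44.4 CPM in het embryos. The groups were separate at E12.5 and overlapped at E14.5, where het M2 lay above WT F1. At E16.0 the values were 45.2, 35.6, 48.02 and 48.7 CPM in WT and 28.3, 35.4, 41.8 and 37.9 CPM in het libraries. At E17.5 they were 49.1, 65.2, 64.9 and 49.1 CPM in WT and 48.4, 50.1, 53.4 and 46.6 CPM in het libraries. The groups overlapped at both stages, and the M2 pair at E16.0 was nearly level. The average log2 fold change was -0.23 (SE 0.06) in Sox2-detected, -0.16 (SE 0.07) in Eomes-detected and -0.0012 (SE 0.09) in Neurod6-detected cells. In cells that held Sox2 and neither Eomes nor Neurod6 it was -0.39, and in cells that held Eomes alone of the 3 it was -0.43. At E12.5 in Neurod6-detected cells the log2 fold change was 0.31, and -0.49 (SE 0.23) with het M2 as the only het library.

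The counts of Tmsb15b2 are uncertain, because Tmsb15b1 and Tmsb15l overlap it on the same strand. Of the 353 stretches of 98 bases (the read length) in transcript Tmsb15b2-201, 226 (64.0%) also occur in transcripts of Tmsb15b1 or Tmsb15l, and all 146 of Tmsb15b2-202 do. None of the stretches in transcripts of the other 4 genes occurs in another gene. The promoter window shown above for Tmsb15b2 matched 210 of 215 bases (97.7%) of the window of Tmsb15b1 at an offset of 35 bases. Tmsb15b1 had a log2 fold change of -0.22 (SE 0.10, edgeR adjusted p = 0.478) in Sox2-detected cells, with a median of 22.2 CPM in WT and 20.3 CPM in het libraries. Which of the copies a read came from could not be told apart for most of the sequence.

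**Figure D3:**
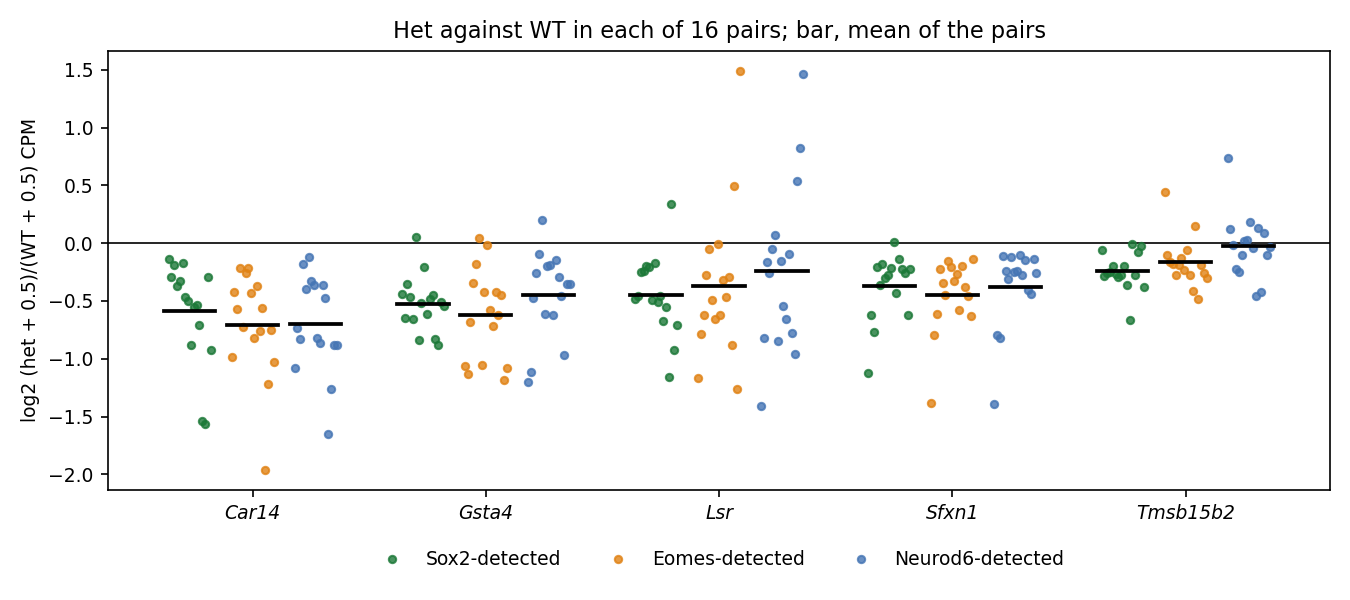
Log2 ratio of het to WT CPM (pseudocount 0.5 CPM, vertical axis) for each of the 16 pairs (points) by gene and cell class, with a bar at the mean. Car14 lies below 0 in all pairs of all 3 classes, while Tmsb15b2 in Neurod6-detected cells is spread on both sides of 0, with 9 of 16 pairs below.

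All 5 genes were lower together in 13 of 16 pairs in Sox2-detected cells, and 4 of 5 were in the other 3 pairs. In Eomes-detected cells all 5 were lower in 11 pairs, and in Neurod6-detected cells in 6. The genes were selected for such a fall, and the share of all genes lower in as many pairs is not given here. Counts of pairs are thus a description. Mean log2 ratios over pairs in Sox2-detected cells were -0.59 ± 0.44 (SD, n = 16) for Car14, -0.52 ± 0.24 for Gsta4, -0.45 ± 0.34 for Lsr, -0.37 ± 0.28 for Sfxn1 and -0.24 ± 0.16 for Tmsb15b2. Single pairs of Car14 ran from -1.57 to -0.13 and those of Lsr from -1.16 to 0.34. Across all genes, edgeR's quasi-likelihood test called 29 of 13837 genes lower and 42 higher in het Sox2-detected cells at an adjusted p under 0.05, which is 0.21% and 0.304%. Of the 5 genes, Car14, Gsta4 and Sfxn1 were among the 29. In Eomes-detected cells 0.114% of 13133 genes were called lower and 0.213% higher, and the same 3 genes were among those lower. In Neurod6-detected cells 0.0274% of 14603 genes were called lower and 0.192% higher, with Car14 among those lower. With the pair (same stage, sex and number) as a block, 0.925%, 0.617% and 0.356% of genes were called lower in the 3 classes. Of the 5 genes, 5, 3 and 3 were among them. Nothing is read from these counts, since the same contrast selected the 5 genes.

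**Figure D4:**
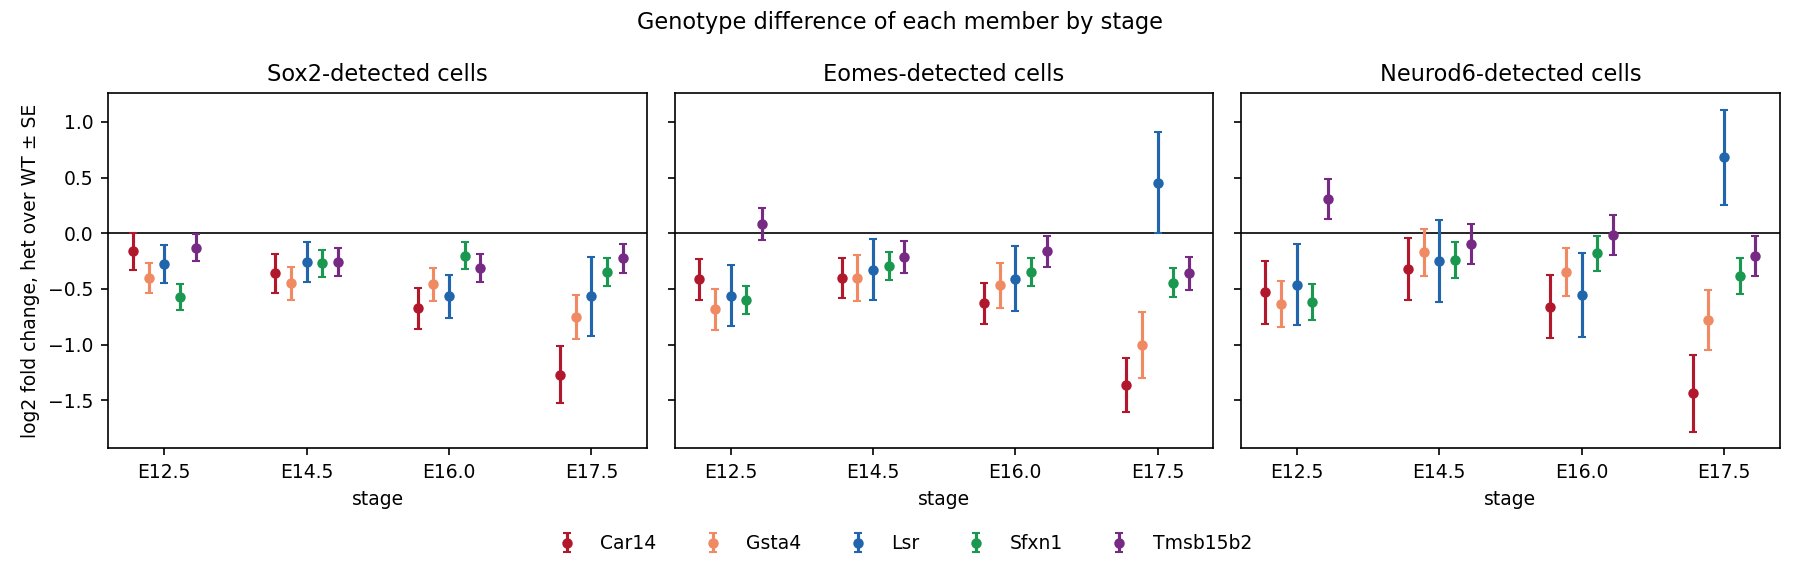
Log2 fold change of Chd8 het over WT (vertical axis) by stage (horizontal axis) for each gene, with a panel for each cell class; bars are the SE of the edgeR fit. Car14 goes from -0.16 at E12.5 to -1.27 at E17.5 in Sox2-detected cells, and Lsr at E17.5 lies above 0 in Eomes-detected and Neurod6-detected cells.

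Whether the het to WT difference changed with stage was tested over all genes in Sox2-detected cells, a question the average over stages does not fix. No gene passed (0% called, with 830 at an unadjusted p under 0.05), and DESeq2 called 4. With the pair as a block edgeR also called 0, but 2560 genes were at an unadjusted p under 0.05. Car14 had an edgeR adjusted p of 0.80 (unadjusted 0.0066), and 0.152 with the pair as a block. The other 4 had edgeR adjusted p-values of 0.91 or more. The stepwise values of Car14 from E12.5 to E17.5 are thus not shown to differ between stages. Het libraries lay entirely below WT libraries for all 5 genes at E12.5, where 6.26% of all genes did so, for none of the 5 at E14.5 (0.701% of genes), for Car14 and Gsta4 at E16.0 (1.62%) and for Car14, Gsta4 and Sfxn1 at E17.5 (0.773%). The share over all genes was highest at the stage with the shallow het libraries. Without those 3 libraries the E12.5 log2 fold changes in Sox2-detected cells were -0.63 (SE 0.22) for Gsta4, -0.31 (SE 0.29) for Lsr and -0.32 (SE 0.20) for Tmsb15b2, against -0.40, -0.27 and -0.13 with them. Without the 3 libraries apart the E17.5 values were -0.71 (SE 0.27) for Gsta4, -0.27 (SE 0.17) for Sfxn1 and -0.32 (SE 0.17) for Tmsb15b2, against -0.75, -0.35 and -0.22 with them. For Lsr at E17.5, described above, the value without them was 0.02.

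The selection did not compare stages or classes within WT embryos, but the same WT libraries were part of the contrast it used. In Sox2-detected cells 4 of the 5 genes fell between E12.5 and E17.5 and Tmsb15b2 rose. Lsr fell most, with a log2 fold change of -3.89 (SE 0.24, edgeR adjusted p = 3.5e-14), from 42.8 ± 0.909 to 3.20 ± 0.743 CPM (SD, n = 4). Gsta4 fell by 2.46 (SE 0.16, adjusted p = 1.4e-13) on the log2 scale, from 52.5 ± 6.19 to 10.7 ± 1.02 CPM, and most of that came before E14.5, where its level was 17.1 ± 0.536 CPM. Car14 fell by 2.22 (SE 0.20, adjusted p = 7.6e-11), from 46.4 ± 1.56 to 11.3 ± 4.94 CPM, and Sfxn1 by 1.10 (SE 0.12, adjusted p = 7.9e-09), from 189 ± 3.06 to 99.3 ± 7.33 CPM. Tmsb15b2 rose by 0.55 (SE 0.13, adjusted p = 0.00047), from 34.9 ± 0.491 to 57.1 ± 9.21 CPM, but by 0.30 and without passing when a cell had to hold at least 2 Sox2 UMIs. Without the libraries apart at E17.5 each of the 5 genes still passed in the same direction. The make-up of the class also changed in WT: cells that held Neurod6 as well went from 16.1% ± 4.02 to 45.8% ± 6.81, cells with Mki67 or Top2a from 72.7% ± 3.31 to 38.5% ± 5.71 (SD, n = 4), and the summed oligodendrocyte precursor markers from a median of 1.36 to 369 CPM. The part of this in the course of the 5 genes was not tested. Change over these stages was common: 27.5% of all genes were called lower and 31.8% higher. Every WT library at E17.5 lay below every WT library at E12.5 for the 4 genes that fell. The het to WT difference at E17.5 rests on few molecules: Car14 had 18 to 84 UMIs per library in Sox2-detected cells.

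The classes were compared in WT cells that held UMIs of only 1 of Sox2, Eomes and Neurod6, with the library as a block. Gsta4 was lower in Neurod6-only than in Sox2-only cells by a log2 fold change of -4.07 (SE 0.22, edgeR adjusted p = 5.6e-19), Car14 by -3.65 (SE 0.20, adjusted p = 2.1e-18), Lsr by -2.38 (SE 0.24, adjusted p = 1.9e-11) and Sfxn1 by -0.52 (SE 0.07, adjusted p = 3.5e-08). Tmsb15b2 was higher in Neurod6-only cells, by 1.86 (SE 0.08, adjusted p = 2.4e-21). Over all 11974 genes, 42.1% were called lower and 39.5% higher in this contrast. Between Eomes-only and Sox2-only cells, where 22.2% of genes were called lower and 16.5% higher, Sfxn1 was lower (-0.24, SE 0.08, edgeR adjusted p = 0.0178) and Tmsb15b2 higher (0.34, SE 0.10, adjusted p = 0.00916). Car14 (0.37, SE 0.20, edgeR adjusted p = 0.155), Gsta4 (-0.53, SE 0.24, adjusted p = 0.0763) and Lsr (0.05, SE 0.27, adjusted p = 0.916) did not pass. This Eomes-only contrast was not stable: Tmsb15b2 (0.23) and Gsta4 (-0.65) changed sides of the threshold without the low-count filter, Sfxn1 without WT E12.5 M1 (-0.20) or F2 (-0.18), Gsta4 without WT E17.5 M1 (-0.60) and Car14 with DESeq2 (0.54). The Neurod6-detected class also holds cells with Sox2 or Eomes: in WT at E12.5 Car14 was 21.9 CPM in Neurod6-detected and 5.14 CPM in Neurod6-only cells. In het libraries at E12.5 the means were 13.9 and 6.445 CPM, so in Neurod6-only cells het was not below WT at that stage.

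**Figure D5:**
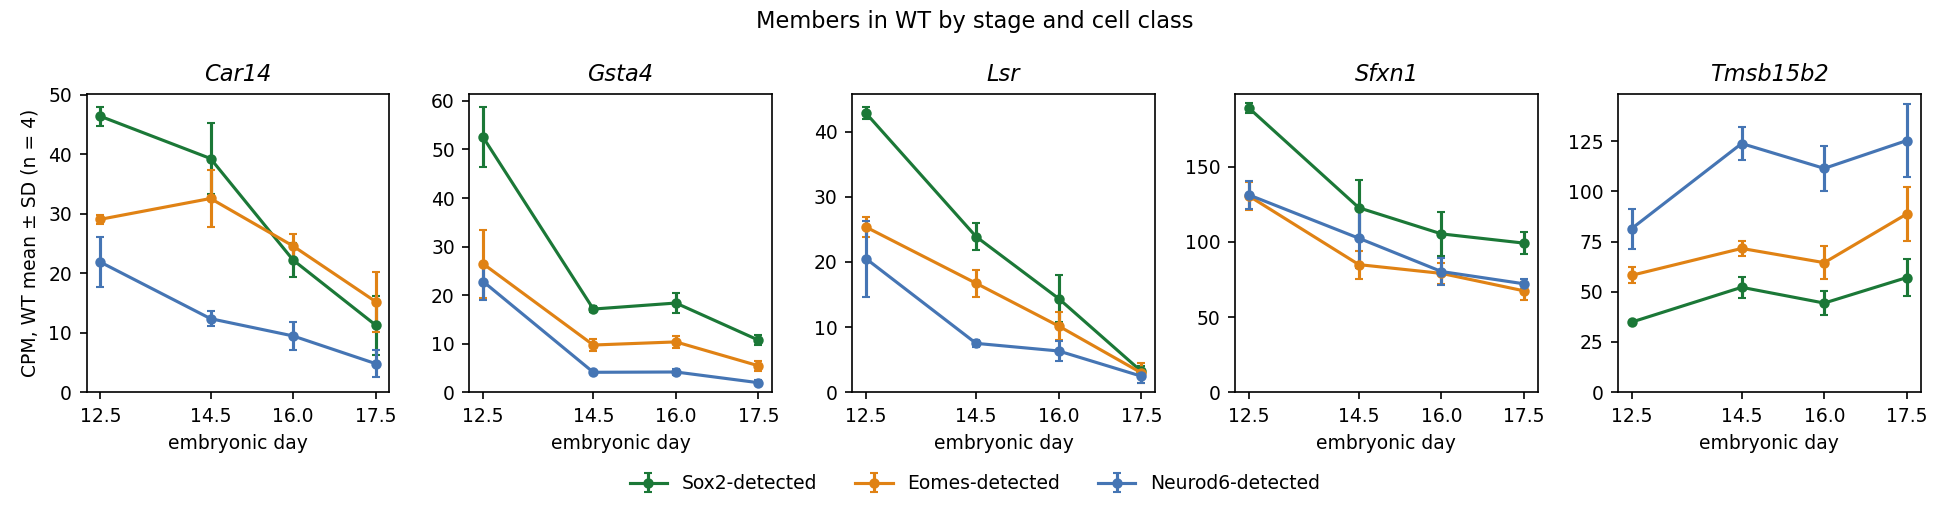
WT level of each gene in CPM (mean, vertical axis; bars are the SD over 4 libraries) by stage (horizontal axis) in Sox2-detected, Eomes-detected and Neurod6-detected cells. Car14, Gsta4, Lsr and Sfxn1 start highest in Sox2-detected cells at E12.5 (46.4, 52.5, 42.8 and 189 CPM), while Tmsb15b2 is highest in Neurod6-detected cells at E17.5 (125 CPM).

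Ordered by level over the 12 combinations of stage and class in WT, Car14, Gsta4, Lsr and Sfxn1 were each highest in Sox2-detected cells at E12.5. Car14 ran from 46.4 ± 1.56 CPM there through 39.3 ± 6.03 in Sox2-detected and 32.6 ± 4.84 in Eomes-detected cells at E14.5 down to 4.79 ± 2.30 in Neurod6-detected cells at E17.5. The libraries of neighbours in that order overlapped at all but 1 of 11 steps, between 29.1 CPM (Eomes-detected, E12.5) and 24.6 CPM (Eomes-detected, E16.0). Gsta4 had 4 steps without overlap, among them 1 from 52.5 CPM in Sox2-detected to 26.4 ± 7.06 CPM in Eomes-detected cells at E12.5. Lsr had 3, from 42.8 to 25.4 CPM (the same classes at E12.5), from 10.2 CPM in Eomes-detected cells at E16.0 to 7.49 CPM in Neurod6-detected cells at E14.5, and from 6.32 CPM in Neurod6-detected cells at E16.0 to 3.20 CPM in Sox2-detected cells at E17.5. Sfxn1 had 2, from 189 to 131 CPM at the top and from 99.3 to 84.9 CPM lower down, and its lowest level was 67.5 ± 6.01 CPM in Eomes-detected cells at E17.5. Tmsb15b2 had 1, at the bottom of its order, where Sox2-detected cells at E12.5 (34.9 CPM) lay below those at E16.0 (44.4 ± 6.05 CPM). Its highest levels were 125 ± 17.98 and 124 ± 8.001 CPM in Neurod6-detected cells at E17.5 and E14.5.

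The genes whose WT means followed each of the 5 most closely over those 12 combinations, which share libraries and cells, are given as a description. Among 9798 genes, Car14 was most like Nt5dc2 (Pearson r of log2(CPM + 1) 0.988), Jam3 (0.981) and Rpl9 (0.976). For Gsta4 they were Nudcd2 (0.994), Peg12 (0.991) and Net1 (0.990), and for Lsr Trim27 (0.981), Prkab1 (0.980) and Aasdhppt (0.979). For Sfxn1 they were Snhg15 (0.977), Tnfrsf19 (0.974) and Eif5a (0.972), and for Tmsb15b2 Pdxp (0.989), Ttll1 (0.987) and Sh3bp5 (0.984). None of the 5 was among the closest 3 of another.

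The share of Sox2-detected cells with at least 1 UMI of a gene was compared after cells were thinned to 2000 UMIs. Shallower cells were left out: the E12.5 libraries lost 115 cells in het and 0 in WT embryos, and those of E17.5 lost 42 and 32. WT libraries reached 8.23% ± 0.147 for Car14 and het libraries 7.17% ± 0.563 at E12.5 (SD, n = 4), and 35.5% and 23.2% without thinning, where depth differed (median 10740.0 and 6821 UMIs per cell). At E17.5 it was 1.73% ± 1.01 and 0.929% ± 0.787. Cells with at least 2 interneuron markers, a type with little Car14, gave 0.289% and 0.165% at E17.5, at medians of 3166 and 3441 UMIs. Sfxn1 was detected in 29.9% ± 0.642 of WT and 20.2% ± 3.93 of het cells at E12.5, and in 16.1% ± 0.659 and 13.9% ± 1.06 at E17.5. In the interneuron cells Sfxn1 was at 16.9% and 15.8% at E17.5, near its share in Sox2-detected cells. Gsta4 went from 9.28% ± 1.05 to 7.02% ± 1.10 between WT and het at E12.5, Lsr from 8.31% ± 0.680 to 6.17% ± 0.447, and Tmsb15b2 from 7.13% ± 0.367 to 5.96% ± 0.593. Interneuron cells were few at E12.5 (176 in WT and 187 in het embryos) and their shares varied widely. They gave 12.35% ± 9.48 and 2.29% ± 2.76 for Gsta4, 2.95% ± 3.51 and 1.36% ± 1.89 for Lsr, and 7.59% ± 7.52 and 7.97% ± 6.83 for Tmsb15b2. For Car14 they gave 2.03% ± 3.30 and 0.899% ± 1.799, and for Sfxn1 26.1% ± 17.3 and 37.5% ± 41.9. Since the shares of Gsta4, Sfxn1 and Tmsb15b2 in Sox2-detected cells were at or below those of interneuron cells in WT or het embryos, no difference in detection is read for these genes. Fewer cells with the RNA and less RNA per cell cannot be told apart from such shares.

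Sox2-detected cells were split by whether they held a UMI of the proliferation genes Mki67 or Top2a. The average log2 fold change of Car14 was -0.69 (SE 0.10) with and -0.55 (SE 0.12) without them, and that of Gsta4 was -0.52 and -0.51. Sfxn1 was at -0.35 and -0.36. For Lsr the values were -0.67 (SE 0.11) and -0.28 (SE 0.17), and for Tmsb15b2 they were -0.34 (SE 0.07) and -0.16 (SE 0.06). All 5 lay below 0 in both kinds of cell, and whether the 2 kinds differ was not tested.

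Male and female pairs were compared for each gene and class, 15 exact two-sided permutation tests on 8 male and 8 female pairs. None passed after Benjamini-Hochberg adjustment, with adjusted p-values from 0.566 to 0.983. Sex was permuted over the pairs of all stages together. The spread between stages thus enters these tests, and a sex difference within stages could be missed. The smallest unadjusted p was 0.117, for Car14 in Neurod6-detected cells, where the mean log2 ratio was -0.54 ± 0.28 in male and -0.87 ± 0.48 in female pairs (exact permutation test, adjusted p = 0.566).

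Markers of other cell types were summed per library beside these results. None of the 67 marker genes tested was called by edgeR between genotypes in Sox2-detected cells (4 at an unadjusted p under 0.05, 0 called by DESeq2). None was called by edgeR in Eomes-detected or Neurod6-detected cells either (6 and 4 at an unadjusted p under 0.05), where DESeq2 called 1 in each, the meningeal marker Col1a2. Meningeal fibroblast markers (5 of 5 lower in het by their means) summed to 1.53 to 52.9 CPM in WT and 0.672 to 34.8 CPM in het libraries, and overlapped between genotypes at E12.5 (15.4 to 52.9 and 7.56 to 34.8 CPM). Markers of the cortical hem and choroid plexus, the medial structures next to the dissected tissue, were lower in 7 of 7 by their means, at 0 to 97.7 CPM in WT and 0.0801 to 16.7 CPM in het libraries. At E12.5, where all 5 genes were also separate between genotypes, they were 19.1 to 97.7 CPM in WT (the highest in F2) and 10.2 to 16.7 CPM in het libraries, without overlap, and in all 8 libraries at E17.5 Wnt3a, Lmx1a and Folr1 were at 0 in Sox2-detected cells. The 14 lists were summed in 3 classes at 4 stages. With 4 libraries a group, some of so many sums separate by chance. The separate cases are given only as a description. Other summed lists were also without overlap between genotypes at single stages in Sox2-detected cells. Cell cycle markers at E12.5 summed higher in het libraries (3262 to 3384 CPM in WT, 3686 to 4241 CPM in het). The share of these cells with Mki67 or Top2a went the other way, at 72.7% ± 3.31 in WT and 65.1% ± 8.42 in het embryos (SD). The shallow het libraries enter both measures, so no change in cycling is read. At E16.0, where Car14 and Gsta4 were separate, intermediate progenitor markers (1507 to 1595 CPM in WT, 1671 to 1900 CPM in het, 0 of 5 lower by their means) and Cajal-Retzius cell markers (1.52 to 1.97 and 2.80 to 5.98 CPM) were higher in het libraries. Meningeal fibroblast markers were lower at E14.5 (1.53 to 3.25 and 1.19 to 1.47 CPM). In Eomes-detected cells radial glia markers summed lower at E17.5 (2353 to 2515 CPM in WT, 2040.0 to 2277 CPM in het). There Car14, Gsta4 and Sfxn1 were separate too, with het below WT, as were 1.06% of all genes. Excitatory neuron markers summed higher at E12.5 (3069 to 3263 and 3344 to 4082 CPM). Single markers did not all follow their sums. Averaged over stages, 5 of 7 radial glia and 2 of 6 excitatory neuron markers had log2 fold changes below 0 in Eomes-detected cells. In Neurod6-detected cells cortical hem and choroid plexus markers were lower at E14.5 (0.459 to 0.605 and 0.221 to 0.389 CPM). The part of these lists in the differences of the 5 genes was not tested. In meningeal fibroblast cells pooled over libraries Lsr was 62.2 CPM, Gsta4 31.97 CPM and Car14 15.5 CPM. The medians over the 9 libraries with at least 20 such cells were 29.9, 35.2 and 14.8 CPM. Without the cells of 8 other types, 7.67% of the Sox2-detected cells, the 5 genes kept log2 fold changes below 0 in Sox2-detected cells, with Lsr at -0.55. Those types include meningeal fibroblasts and cortical hem and choroid plexus cells. At E12.5 the log2 fold changes were then -0.17 (Car14), -0.38 (Gsta4), -0.29 (Lsr), -0.58 (Sfxn1) and -0.13 (Tmsb15b2), against -0.16, -0.40, -0.27, -0.57 and -0.13 with all cells.

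Relatives and pathway partners of the 5 genes came from 8 lists, and 96 of these other genes could be tested in Sox2-detected cells, of which edgeR called 2 and DESeq2 called 3 (Gstt1, Gss and Aldh2). Gstt1, another glutathione transferase, was lower in het cells (log2 fold change -0.39, SE 0.09, edgeR adjusted p = 0.0276), from 3.92 to 3.07 CPM and in 14 of 16 pairs. Gss, the enzyme of the last step of glutathione synthesis, was higher (0.28, SE 0.06, adjusted p = 0.0132), from 13.5 ± 2.06 to 16.2 ± 2.48 CPM, and was lower in 1 of 16 pairs. Of 15 glutathione transferases tested, 14 lay below 0, with a median log2 fold change of -0.06 beside 0.0012 over all genes, and 1 was called. Gstm1 was at -0.16 and Gstm5 at -0.04. Of 9 other carbonic anhydrases none was called (median -0.12), with Car2 at 0.02, Car8 at -0.26 and Car12 at -0.12. The other sideroflexins, Sfxn2 (-0.14), Sfxn3 (-0.05), Sfxn4 (0.08) and Sfxn5 (-0.0034), were not called.

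Of 21 genes of serine and one-carbon metabolism none was called (14 below 0, median -0.05). Phgdh and Psat1, which make serine, were at -0.06 and -0.15. Of 15 cell junction genes none was called, 13 lay below 0 and the median was -0.12, with Cgn, a tight junction protein, at -0.45 (SE 0.15, edgeR adjusted p = 0.253) and Tjp1 at -0.16. Of 23 genes of glutathione and redox metabolism edgeR called Gss and DESeq2 called Gss and Aldh2, 9 lay below 0 and the median was 0.0048. Among them Nfe2l2, the regulator of the antioxidant response, was at -0.24 (SE 0.07, edgeR adjusted p = 0.173). Of 6 lipoprotein receptors none was called (median -0.04). The main beta-thymosins Tmsb4x and Tmsb10 were at 0.02 and 0.09. In Eomes-detected cells 0 of 92 other genes were called by edgeR (smallest adjusted p = 0.176, 8 at an unadjusted p under 0.05) and in Neurod6-detected cells 0 of 99 (smallest adjusted p = 0.40, 4 at an unadjusted p under 0.05). DESeq2 called 0 in both. The signs of the lists were not the same in these classes. In Eomes-detected and Neurod6-detected cells, 3 of 7 and 3 of 11 other carbonic anhydrases lay below 0 (medians 0.02 and 0.12). For cell junction genes it was 8 of 15 and 12 of 16 (medians -0.01 and -0.10). For glutathione transferases it was 11 of 14 and 10 of 15 (medians -0.06 in both).

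The chromosomal neighbours are given beside each gene. Positions are from GENCODE M21 (GRCm38): Car14 on chromosome 3 at 95897768 to 95904691, minus strand; Gsta4 on 9 at 78182774 to 78209349, plus; Lsr on 7 at 30957770 to 30973464, minus; Sfxn1 on 13 at 54071869 to 54108342, plus; and Tmsb15b2 on X at 136955265 to 136975497, minus. The nearest 2 tested genes on each side gave 20 neighbours in Sox2-detected cells. None was called by edgeR (smallest adjusted p = 0.438, 4 at an unadjusted p under 0.05) or DESeq2, with log2 fold changes from -0.37 to 0.47. They lay up to 785745 bases away. Aph1a, which overlaps Car14 on the other strand, was at -0.13 (SE 0.10, edgeR adjusted p = 0.79), Usf2, 967 bases from Lsr, was at -0.05, and Ick, 10667 bases from Gsta4, was at 0.0049. The tested neighbours of Sfxn1 were distant, with Sptlc1, 694472 bases away, at -0.06 and Cplx2, 263007 bases away, at 0.05. Beside Tmsb15b2, Slc25a53 (5619 bases) was at 0.03 and Rab9b (86510 bases) at 0.02. Whether counting used strand is not given in the sources used here, so reads of Car14 and Aph1a, and of Lsr and the overlapping Gm4673 and Gm17077, could not be told apart where they overlap.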

How the data were processed

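Single-cell libraries (10x 3′, v2) from 32 embryos were analysed. The authors deposited whole-number UMI counts per gene and barcode, not normalised. Per the submitters' processing notes, the tools were STAR 2.7.9a, STARsolo and Cell Ranger and the build was mm10; how cells were called and whether strand was used is not stated there. Gene positions came from GENCODE M21 (99.85% of identifiers matched).

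Of 145082 barcodes, 143697 passed minimums of 1000 UMIs and 500 genes and a maximum mitochondrial share of 10%, and 5471 likely doublets were removed by similarity to simulated doublets at an assumed rate of 0.8% per 1000 cells. Counts were summed per library and class. Free RNA was not modelled. edgeR 4.0.16 (TMM, filterByExpr, quasi-likelihood test, R 4.3.3, Benjamini-Hochberg over all genes, threshold 0.05) was fitted to all 32 libraries with a mean per group; DESeq2 1.42.0 was an alternative, and the script was tested on simulated counts. Fold changes are therefore relative to TMM scaling, while CPM uses the class total. Per the labels' protocols embryos were matched by litter and sex, and those of the same stage, sex and number were paired. Deviations from group means correlated by more than 0.1 in 15, 15 and 14 of 16 pairs (Sox2, Eomes, Neurod6), the exceptions being E17.5 F1 and, in Neurod6, E16.0 M2, with medians of 0.498, 0.441 and 0.600. Embryos of unlike number were not compared. At E14.5 and E16.0 the first principal component (60.4% and 56.8% of the variance) put male and female libraries of both genotypes on opposite sides of 0. These correlations therefore cannot show that the numbers match the litters.

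The 5 genes and all lists, motifs and tests were chosen with earlier results of these data known. Other genes were named by rule: list genes that passed and up to 3 relatives of each gene, the nearest 2 tested genes on each side, the 3 closest WT patterns, Chd8, markers, and copies of Tmsb15b2. Cgn, Tjp1, Nfe2l2, Phgdh and Psat1 were added after their values were seen. Alternatives covered the normalisation, low-count filter, pairing, class definition, doublets, stages and libraries.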

Additional observations from a re-analysis of the deposited data

Results flagged for a closer look

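In 120 sets of 4 libraries (5 genes, 3 classes, 8 groups), 10 had a library whose gap to the nearest other was large for the range of its set, where chance alone gives about 1 in 20. Car14 was low in WT E12.5 M1 in Sox2-detected cells (44.1 CPM, others 47.0 to 47.4), low in WT E16.0 M1 in Eomes-detected cells (21.6 CPM, others 25.3 to 25.8) and high in het E12.5 M2 in Neurod6-detected cells (23.4 CPM, others 9.46 to 11.7). That last library was the deep het library of its stage. Gsta4 was high in het E17.5 M2 in Neurod6-detected cells (1.56 CPM, others 1.02 to 1.06).

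Lsr was low in WT E14.5 F1 in Sox2-detected cells (20.8 CPM, others 24.7 to 25.1), high in WT E16.0 M2 (13.4 CPM, others 8.89 to 9.36) and high in WT E17.5 F2 (5.32 CPM, others 1.92 to 2.43), both in Eomes-detected cells. WT E17.5 F2 also had the most endothelial RNA of its group, 49.3 CPM. Sfxn1 was low in WT E14.5 F1 (70.9 CPM, others 89.3 to 89.9) and high in het E16.0 M2 (70.2 CPM, others 59.0 to 60.1) in Eomes-detected cells, and Tmsb15b2 was low in WT E16.0 M2 in Neurod6-detected cells (94.9 CPM, others 115.6 to 118).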

How the results depend on the processing

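The log2 fold changes of the 5 genes averaged over stages moved by less than the SD of the pairs in all 480 values from fits that left out 1 library. They did so under the other alternatives too, except Tmsb15b2 in exclusive classes (Sox2 -0.39, Eomes -0.43). That SD is a wide limit for an average, so staying within it does not show that a value is stable. For Lsr in Eomes-detected cells the SD was 0.66, and the values ran from -0.86 to -0.019 around -0.21. The direction of the 5 genes held except in Neurod6-detected cells, where Tmsb15b2 lay on either side of 0 (-0.20 to 0.061) and Lsr was 0.016 without the shallow het libraries. Values at single stages turned as the report gives them. Counts of genes called moved more. Sox2-detected cells had 71, and 130 with DESeq2, 31 without the low-count filter, 18 with exclusive classes, 34 with at least 2 marker UMIs, 23 with the thinned marker, 13, 28 and 12 without E12.5, E14.5 and E16.0, and 23 without the shallow het libraries, an alternative added after seeing the data. Eomes-detected cells had 43, and in the same order 74, 22, 0 (edgeR, 323 at an unadjusted p under 0.05), 30, 21, 14, 22, 10 and 22, with 23 without E17.5. Neurod6-detected cells had 32, and 65 with DESeq2 (49 higher, 16 lower), 12 with exclusive classes, 10, 14 and 9 without E12.5, E14.5 and E16.0, and 15 without the shallow libraries. The cause was not tested. With the pair as a replicate block the counts were 239, 165 and 132, and the block called Lsr and Tmsb15b2 in Sox2-detected and Gsta4 and Sfxn1 in Neurod6-detected cells. The block changed no other call of the 5 genes. Other settings added or lost calls. DESeq2 and at least 2 marker UMIs each called all 5 in Sox2-detected cells. With exclusive classes only Gsta4 and Tmsb15b2 were called there, and 0 of the 5 in the Eomes and Neurod6 classes. In Neurod6-detected cells Car14 lost its call whichever stage was left out, and with at least 2 marker UMIs. Nothing is read from these calls.

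Leaving out 1 library gave 39 to 128 (Sox2), 30 to 160 (Eomes) and 25 to 60 (Neurod6), with every highest count without het E12.5 M2. In Sox2-detected cells the count also moved by over 1.5 times without WT E12.5 M1 (43), F1 (39) or F2 (47), het E12.5 M1 (46), WT E14.5 M2 (43), het E14.5 M2 (47), het E16.0 M1 (42) or F2 (42), or WT E17.5 M2 (45). The genotype by stage test called 0 genes, 4 with DESeq2, 1 with exclusive classes and 0 to 75 without 1 library (75 without het E12.5 M2, 1 without WT E12.5 M2), where Car14 had an edgeR adjusted p of 0.143. WT counts ranged over 7645 to 8449 (E17.5 over E12.5), 9489 to 9823 (Neurod6-only) and 4292 to 4633 (Eomes-only). The uncalled Eomes-only over Sox2-only value of Lsr, 0.05, was -0.079 without the filter and -0.039 to 0.12 without 1 library, below 0 without WT E16.0 F1 (-0.028) or WT E17.5 F2 (-0.039). In that contrast Car14 passed with DESeq2 (0.54) and Gsta4 without the filter (-0.65) or WT E17.5 M1 (-0.60), while Tmsb15b2 without the filter (0.23) and Sfxn1 without WT E12.5 M1 (-0.20) or F2 (-0.18) did not. The WT rise of Tmsb15b2 was 0.30, not passing, with at least 2 marker UMIs. Depth limits Lsr and Gsta4 at E17.5, and Lsr had as few as 4 UMIs in a Sox2-detected library.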
